A study of Mus musculus with 18 samples.

Results

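The comparison described here asked whether the change between 2 treatment steps differed between 2 lines of mouse embryonic stem (ES) cells. It rested on 12 of the 18 arrays of the series, 3 in each of 4 groups: KO-labelled arrays titled 8h2h, KO-labelled arrays titled 8h, Rescue-labelled arrays titled 8h2h and Rescue-labelled arrays titled 8h. For each gene the line difference was the KO change (8h2h minus 8h) minus the Rescue change, so a positive value means that the gene went higher, or fell less, on KO-labelled arrays. The arrays were taken from the whole series by their titles and paired by replicate letter (a, b or c), each letter being a slide that held every group. No expression value chose them.

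By the labels all cells were of strain 129SV, lacked Esrrb and expressed Raf-ErT2, a fusion whose Raf kinase is inactive until 4-hydroxytamoxifen (4OHT) is added. The KO line carried an empty vector and the Rescue line an Esrrb transgene. Cells grew in serum with LIF and the GSK3 inhibitor Chir99021, and for the last 24 h before treatment with 250 nM PD173074, an inhibitor of FGF receptors, in place of Chir99021. The treatment text gives 8 h of 250 nM 4OHT for one step, and for the other the same followed by 2 h with a Mek inhibitor, which the design text names as PD03. Whether a line was 1 clone, and whether replicate letters were separate cultures, is not stated in the labels, so p-values measure only the spread between these arrays.

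Raf-ErT2 feeds the cascade in which Raf activates Mek and Mek activates ERK. ERK drives immediate-early genes such as Egr1 and feedback inhibitors such as the Dusp phosphatases and Sprouty proteins, which turn over quickly when Mek is blocked. In ES cells ERK activity loosens naive pluripotency, while Esrrb, an orphan nuclear receptor, is one of the factors that holds it in place. BMP4 signals through Smad proteins to Id genes, whose products block differentiation-promoting helix-loop-helix factors.

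The labels limited what a direction can mean in 2 ways. On all 12 arrays the title and the source name disagreed: the source name mentions the Mek inhibitor where the title reads 8h, and omits it where the title reads 8h2h. Groups here follow the titles. If the source names were right, every within-line change and every line difference below would turn its sign. Dusp6, an ERK feedback phosphatase, was lower on every array titled 8h2h (0.06 to 0.61) than on any titled 8h (4.56 to 4.78) in log2 scaled signal, the unit used for levels throughout: log2 processed signal minus that array's 75th percentile. The step with the inhibitor was also 2 h longer, so the 2 cannot be told apart. Nor can a group be told apart from its place on the slide, which was the same on each.

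Esrrb itself ran against the line labels. Its level was 4.30, 3.26 and 4.00 on KO-labelled arrays titled 8h2h and 4.09, 3.5 and 3.65 on those titled 8h (replicates a, b and c, the order used throughout). On Rescue-labelled arrays it was 1.78, 1.53 and 1.57 at 8h2h and 2.15, 1.75 and 1.84 at 8h. Every KO-labelled array was thus higher than every Rescue-labelled one. Only 1 probe could be named Esrrb here, and whether it lies in the deleted part is not known here, so the probe does not settle the labels. The lines are called by their labels throughout, and each direction between them rests on those labels. The line difference of Esrrb was 0.60 (95% interval 0.34 to 0.87, adjusted p = 0.179 in limma) without KO 8h2h replicate b and 0.39 (-0.12 to 0.90, adjusted p = 0.88) with it.

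Replicate b of the KO-labelled group titled 8h2h stood apart. On it 88.6% of probes were well above background, against 46.6% to 63.8% on the other arrays of the series, and its negative controls had a median signal of 42, against 24.5 to 28. It correlated with its own replicates at 0.945 to 0.947 over genes, where other replicate pairs reached 0.988 to 0.996. Results are therefore given with this array (12 arrays) and without it (11 arrays). Signal at the 75th percentile ran between 297 and 765 over the 18 arrays, and no spot was saturated. All 7 ES cell markers were read well above background on every array of the 4 groups. Summed signal of the 7 readable trophoblast markers was 36.3 to 39.6 (8h2h) and 42.4 to 53.9 (8h) on KO-labelled arrays, against 223 to 247 and 248 to 258 on Rescue-labelled ones, mostly from the keratins Krt8 and Krt18. The 8 fibroblast markers summed to 9.70 to 14.8 and 14.8 to 21.2 on KO-labelled arrays, against 4.86 to 5.70 and 6.45 to 7.57, mostly from Thy1, with Lum read on no array.

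The effect of replicate b on the line difference depended on brightness. On slide b the median line difference was 1.34 for the dimmest of 3 equal groups of genes, -0.10 for the middle group and -0.34 for the brightest. On slides a and c the medians of the same groups lay between -0.02 and 0.02. The line differences of all genes had an SD of 1.20 on slide b, against 0.467 on slide a and 0.501 on slide c. With 12 arrays 1011 genes had a line difference above 1 and 28 below -1, whereas with 11 arrays the counts were 200 and 166.

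**Figure D1:**
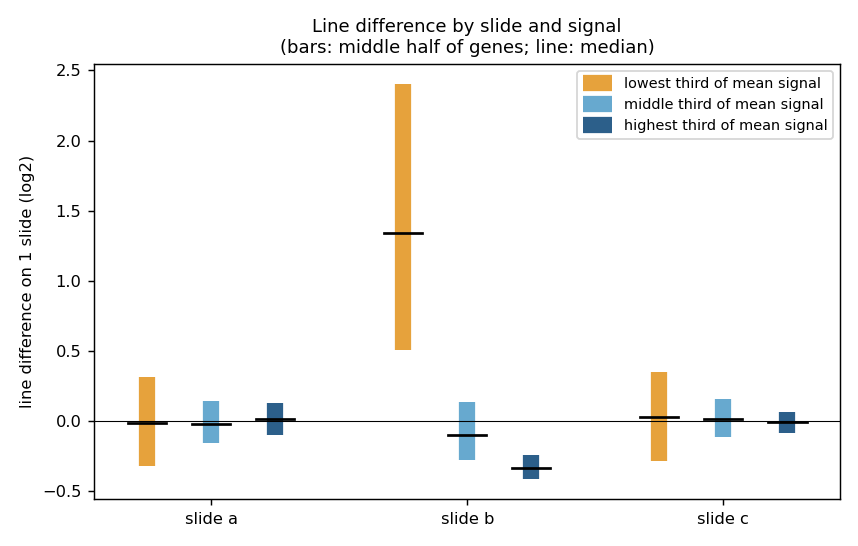
Line difference on each slide (vertical axis, log2), for genes split into 3 equal groups by mean signal. Bars span the middle 50% of genes and black lines mark medians; the dimmest genes sit at a median of 1.34 on slide b, while slides a and c centre near 0.

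Promoter windows from RefSeq (GRCm38.p6) are shown for 2 of the genes with a line difference, because each holds a motif that was searched: Foxa2, a forkhead factor of endoderm and primitive streak, and Olfr1241, an olfactory receptor gene. Each window runs from 250 bases before to 50 bases after the gene start. Foxa2 (chr2:148045415-148045714, minus strand, 1 of 3 listed windows, picked for having the most motif matches) has GGCGCC in capitals, and Olfr1241 (chr2:89483084-89483383, minus strand) has AAGGTCA, an extended nuclear receptor half-site, in capitals.
Foxa2: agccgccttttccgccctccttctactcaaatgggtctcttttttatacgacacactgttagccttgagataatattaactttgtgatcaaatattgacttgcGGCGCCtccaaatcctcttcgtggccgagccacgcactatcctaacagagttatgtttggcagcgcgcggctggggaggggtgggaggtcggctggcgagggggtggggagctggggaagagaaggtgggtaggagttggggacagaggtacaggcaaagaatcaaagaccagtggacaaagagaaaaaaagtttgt
Olfr1241: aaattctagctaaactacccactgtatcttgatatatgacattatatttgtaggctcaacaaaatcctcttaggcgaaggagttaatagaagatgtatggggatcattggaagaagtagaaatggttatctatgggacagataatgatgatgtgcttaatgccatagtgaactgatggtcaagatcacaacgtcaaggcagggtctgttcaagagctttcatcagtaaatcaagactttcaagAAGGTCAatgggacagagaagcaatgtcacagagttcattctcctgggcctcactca
The motifs were chosen after the data were seen and searched on both strands, overlaps between motifs not removed, in the 12642 tested genes with a window. AAGGTCA stood in 4.26% of these and in 1 of the 16 called genes with a window (Olfr1241). CCGGAAGT, an ETS factor core, stood in 7.66% and in 0 of 16. GGCGCC stood in 22.1% and in 7 of 16 (Foxa2, Fzd10, Kcnj4, Nfil3, Pcdh8, Pxdc1 and Slc36a4). A match describes the letters of the window only. In the Olfr1241 window the match ends directly before an atg at the listed gene start. Whether that start is a transcription start was not tested, so this window may not be a promoter.

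The change between the 2 steps ran mostly alike in the lines. Without replicate b, 1975 of 15976 genes (12.4%) changed on KO-labelled arrays, 1028 higher (6.43%) and 947 lower (5.93%) at 8h2h, and 1623 (10.2%) on Rescue-labelled arrays, 844 higher (5.28%) and 779 lower (4.88%). Of these 1085 were called in both lines, which is 54.9% of the KO calls and 66.9% of the Rescue calls. In both lines 540 of them were higher and 541 lower, and 4 went opposite ways. Of the genes called on Rescue-labelled arrays, 96.4% had the same sign on KO-labelled arrays, and 95.3% the other way round. With replicate b the KO calls numbered 1591 (9.96%) and the Rescue calls 618 (3.87%). Across the 13970 genes read on at least 2 arrays of each group, the changes of the lines correlated at r = 0.801 with 11 arrays and 0.708 with 12, as a description over genes whose lines share slides.

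Few genes passed the test of the difference itself. With 12 arrays 5 genes were called (0.0313%), all higher and 0 lower, at a Benjamini-Hochberg adjusted p below 0.05 in limma with the slide as a block. Without replicate b there were 26 (0.163%), of which 18 were higher (0.113%) and 8 lower (0.0501%), and all 5 were among them. All 26 had the same sign with 12 arrays, which is no separate check because the 11 arrays are among the 12. Slide b alone gave the opposite sign for Pxdc1 (1.24), Slc36a4 (1.21) and Pcdh8 (0.55). Without scaling between arrays the 11-array calls were 15 higher and 3 lower. The 12-array count was 8 without KO 8h2h replicate a, 13 without replicate c of that group, and 1 or 2 without any array of the other 3 groups. Of the 11 arrays, leaving out 1 more gave 0 to 26 calls, with 0 for Rescue 8h2h replicate a, Rescue 8h2h replicate c, Rescue 8h replicate b or KO 8h replicate c. At an unadjusted p below 0.05 there were 662 genes (4.14%) with 12 arrays and 1137 (7.12%) with 11. The median line difference was -0.02 and -0.01. A gene's 95% interval had a median half-width of 0.423 with 12 arrays and 0.358 with 11. These intervals are not adjusted for the number of genes, so a call asked for a larger difference. With 11 arrays the smallest called line difference in size was -0.82 (Pxdc1), so differences near the half-width or below were mostly out of reach.

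**Figure D2:**
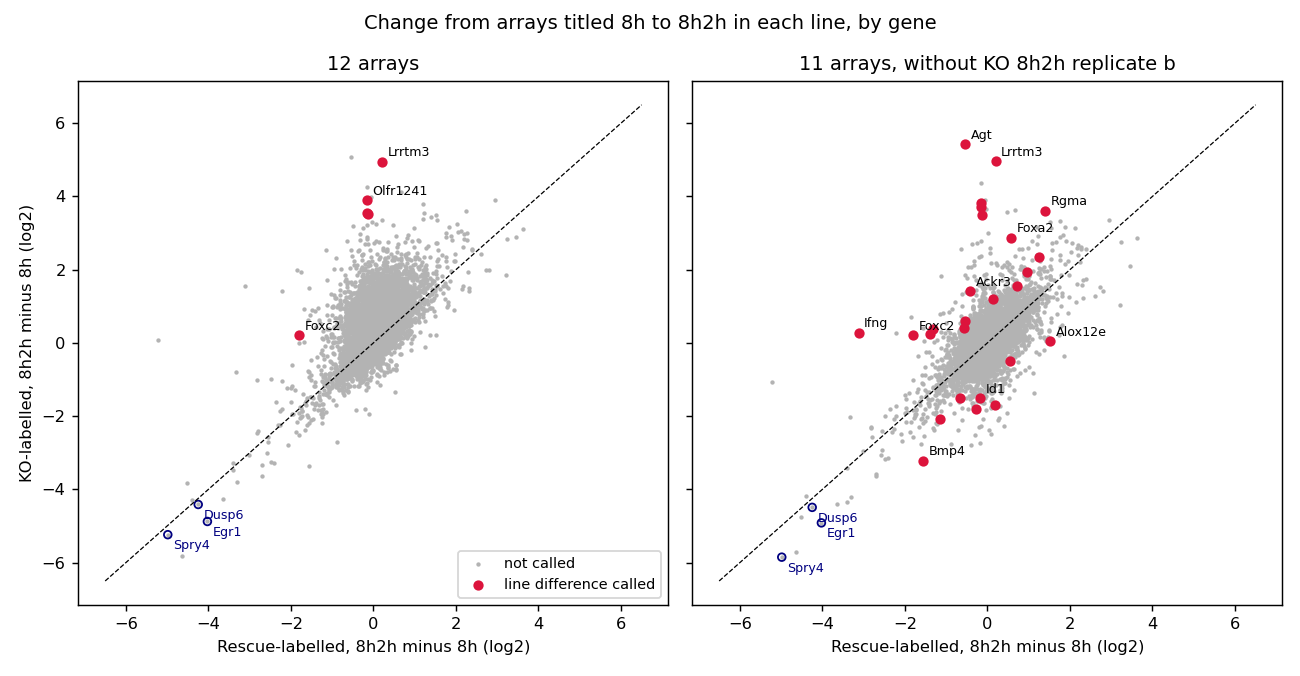
Change between arrays titled 8h2h and 8h for each gene, on KO-labelled (vertical axis, log2) against Rescue-labelled arrays (horizontal axis, log2), with 12 arrays on the left and 11 on the right; red points are the 5 and the 26 genes whose line difference was called. Most genes, with Dusp6, Egr1 and Spry4 (blue rings) at the lower end, lie near the dashed line of equal change. More genes lie over 1 above that line with 12 arrays (1011) than with 11 (200).

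Of the 26 genes, 15 were read well above background on at least 2 arrays of all 4 groups, and all 15 were called with 11 arrays only. Their calls depended on the processing. Of 13 alternative processing settings without replicate b, Ackr3 was called in 12, the most of the 15. Id1 was called in 11, Foxa2 in 10, Bmp4 in 8 and Kcnj4 in 6. Pxdc1 was called in 5 of 12, the fewest. They include the BMP ligand Bmp4 and the Id factor Id1, which fell further on KO-labelled arrays, and Foxa2, the BMP co-receptor Rgma and the chemokine scavenger Ackr3, whose line difference was positive. Another 9 had a group in which no array read the gene. In the last 2, replicate b alone read the gene among KO-labelled 8h2h arrays. Adjusted p-values below are limma's over all 15976 genes.

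Bmp4, a secreted BMP ligand, had the largest negative line difference among the 15. Its level on KO-labelled arrays was 1.94, 0.82 and 1.60 at 8h2h, against 5.28, 4.27 and 4.89 at 8h. On Rescue-labelled arrays it was 1.06, 0.47 and 0.74 at 8h2h, against 2.68, 2.14 and 2.13 at 8h. It fell in both lines with no overlap between the steps, 9.27-fold on KO-labelled (11 arrays) and 2.95-fold on Rescue-labelled arrays. The line difference was -1.65 (SE 0.18, adjusted p = 0.0338) with 11 arrays and -1.80 (SE 0.21, adjusted p = 0.0675) with 12. The slides gave -1.72, -1.78 and -1.90, replicate b included. A second Bmp4 probe gave -1.68 over the 3 slides. KO-labelled arrays titled 8h were the highest group, and the lines lay closer to each other at 8h2h.

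Id1, which encodes an inhibitor of helix-loop-helix factors and is a BMP target, fell on KO-labelled arrays, and its change on Rescue-labelled arrays missed the threshold. Its level was 2.44, 3.07 and 2.37 at 8h2h, against 3.83, 3.95 and 3.99 at 8h, on KO-labelled arrays. Rescue-labelled arrays read 4.10, 4.07 and 3.87 at 8h2h, against 4.28, 4.11 and 4.15 at 8h. The 3 KO-labelled 8h2h arrays were the lowest of the 12. The KO change was -1.52 (SE 0.10, adjusted p = 0.000327) and the Rescue change -0.17 (SE 0.09, adjusted p = 0.293) with 11 arrays. The line difference was -1.35 (SE 0.13, adjusted p = 0.0338), and -1.13 (SE 0.23, adjusted p = 0.379) with 12 arrays, where slide b gave the smallest value, -0.84.

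Other members of the Nodal, Lefty and BMP-Id list did not pass with 11 or 12 arrays. Of its 17 tested members (18 listed), 2 were lower (Bmp4 and Id1) and 0 higher with 11 arrays, against 0.0501% and 0.113% of all genes, and 0 were called with 12. The list's median was -0.25 with 11 arrays and -0.18 with 12. Id2, another Id factor, had a line difference of 1.18 (95% interval 0.36 to 2.0, adjusted p = 0.46), in the direction opposite to Id1, and was called with array weights on 12 arrays (1.36, adjusted p = 0.0423). That setting called 108 of the 15976 genes with 12 arrays. With 11 arrays it called 14, all of them also called without weights, so Id2 was not among them. Id3 had -0.44 (-1.38 to 0.50, adjusted p = 1), and -0.23 with 12 arrays. Smad7, a feedback inhibitor of the pathway, had -0.50 (-0.84 to -0.16, adjusted p = 0.45), and it fell in both lines, by 1.72 on KO-labelled and 1.23 on Rescue-labelled arrays on the log2 scale. Nodal was higher at 8h2h in both lines (1.01 and 1.19), with a line difference of -0.18 (-0.58 to 0.22). Lefty1, a Nodal antagonist and target, stood at 0.23, 0.81 and -1.24 at 8h2h against -2.41, -1.69 and -5.47 at 8h on KO-labelled arrays. Its line difference of -0.75 had an interval of -3.57 to 2.06.

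Foxa2 had the largest positive line difference of the 15 with 11 arrays, and Rgma with 12. KO-labelled arrays read it at -0.76, -1.63 and -0.26 at 8h2h, against -3.61, -3.55 and -2.97 at 8h. Rescue-labelled arrays read -2.69, -2.09 and -2.06 at 8h2h, against -3.28, -2.86 and -2.41 at 8h. The 3 KO-labelled 8h2h arrays were the highest of the 12. With 11 arrays it rose 7.31-fold on KO-labelled and 1.48-fold on Rescue-labelled arrays, and the line difference was 2.30 (SE 0.19, adjusted p = 0.0243). With replicate b, whose slide gave 1.14 where slides a and c gave 2.27 and 2.36, it was 1.92 (SE 0.38, adjusted p = 0.323).

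Foxa2 stood in the primitive endoderm list and in the Wnt and primitive streak list, and was the member called in each (1 of 19 and 1 of 16 tested with 11 arrays, against 0.113% of all genes, and 0 in each with 12). The lists' medians were -0.05 and -0.09 with 11 arrays and 0.17 and 0.18 with 12. Array weights on 12 arrays also called Sox7 (adjusted p = 0.0341), which they did not call with 11. Among other endoderm factors Hnf4a had 1.60 (0.77 to 2.44, adjusted p = 0.257), Sox7 1.36 (0.38 to 2.33, adjusted p = 0.491) and Sox17 0.62 (0.30 to 0.94, adjusted p = 0.257), the last 1.09 with 12 arrays. Gata4 and Gata6, which also mark primitive endoderm, had -0.43 (-1.53 to 0.66) and -0.36 (-0.89 to 0.16). The summed signal of the 7 primitive endoderm markers, Foxa2 among them, was 1.32 to 2.23 at 8h2h and 0.995 to 1.18 at 8h on KO-labelled arrays, against 1.13 to 1.53 and 1.66 to 1.92 on Rescue-labelled ones. Gata4 was read on no KO-labelled 8h2h array. The part of other cell types in the Foxa2 result was not tested.

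Rgma, a membrane-anchored BMP co-receptor, was read at 0.62, -0.13 and 0.51 at 8h2h, against -3.05, -2.90 and -3.35 at 8h, on KO-labelled arrays. On Rescue-labelled arrays its level was -0.48, -1.17 and -1.11 at 8h2h, against -2.0, -2.59 and -2.38 at 8h. It rose in both lines, 12.2-fold and 2.65-fold with 11 arrays, and at 8h the KO-labelled arrays were the lower ones. The line difference was 2.20 (SE 0.26, adjusted p = 0.0440) and with 12 arrays 2.02 (SE 0.29, adjusted p = 0.139). A second Rgma probe was also read well above background on all 12 arrays. It gave 0.57 over the 3 slides and 0.17 over slides a and c, where the probe used gave 2.36. On KO-labelled arrays its mean was -1.11 at 8h2h against -1.80 at 8h. The probes thus disagreed, and the call and the folds rest on 1 of them.

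Genes that moved opposite ways in the lines were 3 of the 15, Ackr3, Slc16a5 and Txnip. Each passed the test within each line with opposite signs (11 arrays). Fbxo32 did so too, but no KO-labelled array read it well above background, so its fitted KO change is no measured change. Ackr3, an atypical receptor that takes up the chemokine CXCL12, had 0.94, 0.52 and 0.88 at 8h2h, against -0.74, -0.22 and -0.34 at 8h, on KO-labelled arrays. On Rescue-labelled arrays it had 1.11, 1.20 and 1.19 at 8h2h, against 1.47, 1.71 and 1.57 at 8h. It was higher at 8h2h on KO-labelled arrays (2.65-fold) and lower on Rescue-labelled ones (1.33-fold), with a line difference of 1.82 (SE 0.15, adjusted p = 0.0243), or 1.63 (adjusted p = 0.12) with 12 arrays.

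Txnip, which encodes a thioredoxin-binding protein that restrains glucose uptake, read 2.25, 2.00 and 2.14 at 8h2h, against 2.73, 2.82 and 2.63 at 8h, on KO-labelled arrays. Its Rescue-labelled levels were 2.46, 2.45 and 2.37 at 8h2h, against 2.01, 1.92 and 1.68 at 8h. It fell 1.41-fold in the KO-labelled line and rose 1.47-fold in the Rescue-labelled one, and the line difference was -1.06 (SE 0.11, adjusted p = 0.0338), with -1.15 (adjusted p = 0.0675) on 12 arrays. A second probe gave -0.78 over the 3 slides. Slc16a5, of the monocarboxylate transporter family, was dim, at -3.35, -3.82 and -3.60 (8h2h) against -4.11, -4.05 and -4.02 (8h) on KO-labelled arrays. Rescue-labelled arrays gave -3.10, -3.11 and -3.23 at 8h2h against -2.61, -2.56 and -2.62 at 8h. Its line difference was 1.15 (SE 0.11, adjusted p = 0.0338), or 1.02 (adjusted p = 0.156) with 12 arrays.

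For Bhlhe40 and Alox12e the change passed on Rescue-labelled arrays and not on KO-labelled ones. Bhlhe40, a helix-loop-helix repressor, had -1.39, -1.05 and -1.63 at 8h2h, against -1.76, -1.58 and -2.0 at 8h, on KO-labelled arrays. On Rescue-labelled arrays it had -0.91, -1.33 and -1.20 at 8h2h, against 0.48, 0.09 and 0.20 at 8h, the 3 highest of the 12. It fell 2.64-fold on Rescue-labelled arrays, and the line difference was 1.65 (SE 0.19, adjusted p = 0.0423), or 1.83 (adjusted p = 0.102) with 12 arrays. Alox12e, a lipoxygenase, had -2.96, -3.03 and -3.22 at 8h2h, against -2.96, -3.53 and -3.37 at 8h, on KO-labelled arrays. Rescue-labelled arrays read -1.31, -1.85 and -1.72 at 8h2h, against -2.81, -3.56 and -3.07 at 8h. The 3 Rescue-labelled 8h2h arrays were above all others, a rise of 2.87-fold, and the line difference was -1.48 (SE 0.13, adjusted p = 0.0243), or -1.31 (adjusted p = 0.149) with 12 arrays.

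In 4 more genes the rise at 8h2h was larger on KO-labelled arrays. Nfil3, a basic leucine zipper factor, had 0.76, 0.01 and 0.85 at 8h2h, against -1.64, -1.58 and -1.42 at 8h, on KO-labelled arrays, and 0.22, 0.27 and 0.32 against -1.14, -0.95 and -0.83 on Rescue-labelled ones. It rose 5.09-fold and 2.36-fold, a line difference of 1.11 (SE 0.10, adjusted p = 0.0295), and a second probe gave 0.79 over the 3 slides. Foxo6, a forkhead factor, had -0.20, -0.69 and -0.53 against -2.19, -2.20 and -2.52 on KO-labelled arrays, and -1.75, -2.07 and -2.23 against -2.84, -2.99 and -3.11 on Rescue-labelled ones, again 8h2h against 8h. Its line difference was 0.98 (SE 0.11, adjusted p = 0.0380). For Kcnj4, an inward-rectifier potassium channel, the levels were -1.06, -1.61 and -1.06 against -2.74, -2.47 and -2.51 on KO-labelled arrays, and -1.64, -1.38 and -1.52 against -2.28, -2.17 and -2.26 on Rescue-labelled ones. The line difference was 0.84 (SE 0.10, adjusted p = 0.0444) and 0.07 on slide b alone. Fzd10, a Wnt receptor of the Frizzled family, had 1.1, 0.38 and 1.07 against -0.24, -0.09 and -0.01 on KO-labelled arrays, and 0.75, 0.72 and 0.68 against 0.49, 0.59 and 0.65 on Rescue-labelled ones. Its Rescue change of 0.14 missed the threshold (adjusted p = 0.316), and the line difference was 1.07 (SE 0.11, adjusted p = 0.0338). With 12 arrays the 4 genes had adjusted p-values of 0.217 to 0.88.

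Without replicate b, Cebpd and Pxdc1 fell further on KO-labelled arrays. Cebpd, a C/EBP family factor, had -1.36, -0.79 and -1.21 at 8h2h, against 0.76, 0.74 and 0.83 at 8h, on KO-labelled arrays, a fall of 4.25-fold. On Rescue-labelled arrays it had 0.29, 0.26 and 0.46 against 1.55, 1.41 and 1.47, a fall of 2.21-fold. Its line difference was -0.95 (SE 0.10, adjusted p = 0.0338), or -0.75 (adjusted p = 0.698) with 12 arrays. Pxdc1 had -4.58, -2.69 and -4.26 at 8h2h, against -3.09, -3.19 and -2.81 at 8h, on KO-labelled arrays, and -0.38, -0.60 and -0.02 against 0.29, 0.13 and 0.60 on Rescue-labelled ones. Only 2 of the 3 KO-labelled 8h2h arrays read Pxdc1 well above background, a count that includes replicate b among the arrays considered. Slides a and c gave -0.81 and -0.84, while slide b gave 1.24, so its line difference of -0.82 (adjusted p = 0.0338) shrank to -0.14 (adjusted p = 0.949) with 12 arrays.

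**Figure D3:**
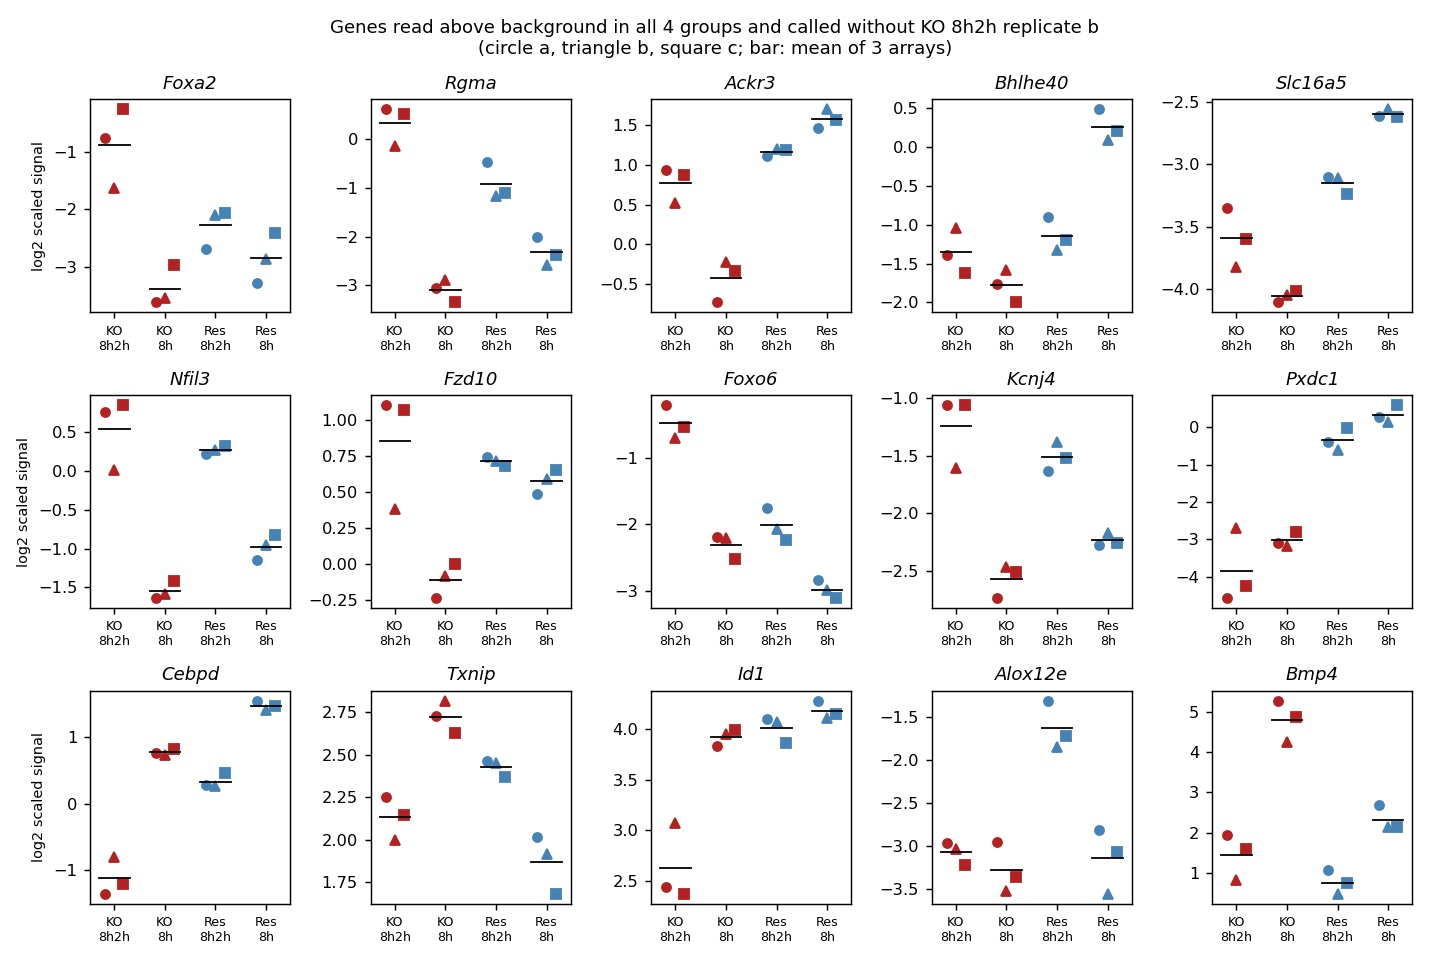
Log2 scaled signal of the 15 genes read on at least 2 arrays of every group and called with 11 arrays; each panel shows KO-labelled 8h2h and 8h (red), then Rescue-labelled 8h2h and 8h (blue, Res), with replicate a as a circle, b as a triangle and c as a square, and a bar for the mean of 3. The triangle of KO-labelled 8h2h is often apart from its replicates, as in Id1, Fzd10 and Pxdc1, while in Bmp4, Bhlhe40 and Txnip the group means hold their order with it.

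All 5 genes called with 12 arrays had groups in which no array read them. Lrrtm3 (a synaptic leucine-rich repeat protein), Olfr1241, Hsd3b4 (of the 3-beta-hydroxysteroid dehydrogenase family) and 4930412B13Rik were read well above background on the 3 KO-labelled 8h2h arrays and on no other of the 12. Foxc2, a forkhead factor of mesoderm, was read on the 3 Rescue-labelled 8h arrays and on no other. Each passed the dim filter only through the group in which it was high, which by itself fixes a difference between groups, so these calls are given as descriptions. For such genes a fitted difference is no measured fold, so levels and lower bounds are given, each bound setting the bright mean against the detection limit of the dim arrays (the lowest signal that any of their probes showed well above background).

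Lrrtm3 was read at -2.67, -2.06 and -1.50 on KO-labelled 8h2h arrays, at least 6.91-fold above the KO-labelled 8h and at least 15.2-fold above the Rescue-labelled 8h2h arrays. Olfr1241 was read at -3.88, -2.73 and -2.37, at least 3.65-fold and 8.03-fold above the same groups. Hsd3b4 was read at -3.54, -3.51 and -2.67 (at least 3.08-fold and 6.77-fold) and 4930412B13Rik at -4.34, -3.29 and -2.96 (at least 2.52-fold and 5.53-fold). Without replicate b the bounds were 6.87-fold and 15.1-fold for Lrrtm3, and between 2.32-fold and 7.42-fold for the other genes. The adjusted p-values with 12 arrays were 0.00197 for Lrrtm3, 0.0382 for Olfr1241, 0.0344 for Hsd3b4 and 0.0382 for 4930412B13Rik, and with 11 arrays 0.0109, 0.0338, 0.0243 and 0.0351.

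Further probes were held for Lrrtm3 and Hsd3b4 and did not show the same signal. A second Lrrtm3 probe was well above background on 0 of the 12 arrays. Of 2 further Hsd3b4 probes, 1 was read on 2 arrays and 1 on 1 array. Olfr1241 and Hsd3b4 belong to families of close copies, and which copy a probe reads was not tested. Over the 15976 genes, 8 were read on all 3 arrays of KO-labelled 8h2h and on no other of the 12, against 0 for KO-labelled 8h, 11 for Rescue-labelled 8h2h and 4 for Rescue-labelled 8h.

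Foxc2 stood at -4.30, -4.78 and -4.35 on Rescue-labelled 8h arrays, at least 2.88-fold above the Rescue-labelled 8h2h arrays and at least 1.31-fold above the KO-labelled 8h arrays. Its adjusted p was 0.0382 with 12 arrays and 0.0338 with 11.

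The remaining dim genes were called with 11 arrays only, and were named after their values were seen. Agt, which encodes angiotensinogen, was read on KO-labelled 8h2h arrays alone, at -1.44, -2.24 and -1.64, at least 8.52-fold above KO-labelled 8h arrays (10.01-fold without replicate b), with an adjusted p of 0.0338. Ifng, the interferon gamma gene, was read on the 3 Rescue-labelled 8h arrays at -4.30, -3.76 and -4.18, at least 3.78-fold above Rescue-labelled 8h2h arrays. Of the KO-labelled arrays, only 8h2h replicate b read Ifng, at -3.13. Slc14a1, a urea transporter gene, stood at -5.92, -5.06 and -5.30 at 8h2h and -4.34, -4.11 and -3.86 at 8h on Rescue-labelled arrays and was read on no KO-labelled array. Fbxo32, a muscle ubiquitin ligase subunit, was likewise read on Rescue-labelled arrays only, at -2.86, -2.38 and -2.23 (8h2h) and -2.25, -1.91 and -1.62 (8h), at least 3.97-fold and 7.67-fold above the KO-labelled arrays of the same step. The adjusted p-values of Ifng, Slc14a1 and Fbxo32 lay between 0.0338 and 0.0380. Agt, Ifng and Slc14a1 also passed the dim filter only through the group where they were high. Fbxo32 passed it only through the Rescue-labelled groups, where it was high. The p-values of Agt, Ifng, Slc14a1 and Fbxo32 are therefore given as descriptions and lend no support.

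Slc36a4, an amino acid transporter gene, and Pcdh8, a protocadherin gene, turned on replicate b. On KO-labelled 8h2h arrays Slc36a4 had -6.57, -3.79 and -6.35 and Pcdh8 -6.45, -4.00 and -6.42, and in each only replicate b was read well above background. Their line differences were -1.90 and -1.53 with 11 arrays (adjusted p = 0.0338 for each), whereas slide b alone gave 1.21 and 0.55.

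**Figure D4:**
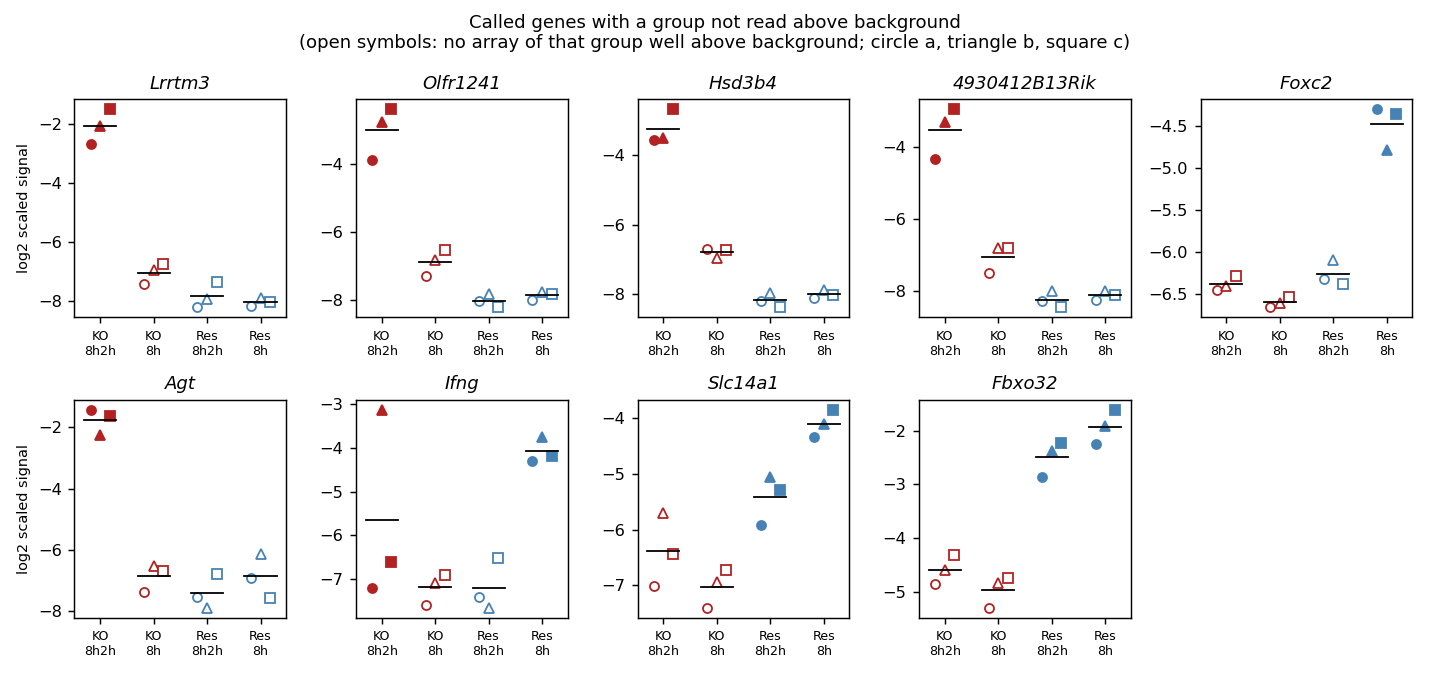
Log2 scaled signal of the 9 called genes that no array of at least 1 group read well above background; open symbols mark such groups, red is KO-labelled, blue is Rescue-labelled (Res), 8h2h left of 8h, and circle, triangle and square are replicates a, b and c. Lrrtm3, Olfr1241, Hsd3b4, 4930412B13Rik and Agt have filled symbols in KO-labelled 8h2h only, and Foxc2 in Rescue-labelled 8h only.

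Most ERK feedback and immediate-early genes fell in both lines. With 11 arrays 24 of the 32 fell at 8h2h on KO-labelled arrays (5.93% of all genes) and 26 on Rescue-labelled ones (4.88%), with 0 higher in either (6.43% and 5.28% of all genes), and the median change was -1.47 in each line. The line difference was called in 0 of 32 with 11 or 12 arrays, and its median was -0.09 in both, against -0.01 and -0.02 over all genes. At an unadjusted p below 0.05 there were 11 of the 32 with 11 arrays and 7 with 12, by limma, against 7.12% and 4.14% of all genes. With array weights on 12 arrays 3 members were called by limma, Egr1 (adjusted p = 0.0248), Egr3 (0.00526) and Fos (0.0489), each with a negative line difference. Array weights called 108 of all 15976 genes with 12 arrays, and with 11 arrays none of these 3.

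Dusp6 had 0.06, 0.36 and 0.10 at 8h2h, against 4.64, 4.56 and 4.56 at 8h, on KO-labelled arrays, and 0.15, 0.61 and 0.52 against 4.64, 4.60 and 4.78 on Rescue-labelled ones. It fell 22.5-fold and 19.0-fold with 11 arrays, and the line difference was -0.24 with an interval of -0.66 to 0.17. Egr1, an immediate-early zinc finger factor, had -0.90, -0.64 and -0.64 against 4.22, 4.07 and 4.16 on KO-labelled arrays, and 0.47, 0.67 and 0.57 against 4.60, 4.60 and 4.57 on Rescue-labelled ones. Its line difference of -0.89 (-1.21 to -0.57, adjusted p = 0.102) had the same sign on 3 of 3 slides and missed the threshold, with 12 arrays as well (-0.85, adjusted p = 0.156). Egr3 (-0.88, adjusted p = 0.0559) and Fos (-0.89, adjusted p = 0.0856), both immediate-early factors, also missed it with 11 arrays. With 12 arrays Egr3 had -0.92 (adjusted p = 0.0936) and Fos -0.47 (adjusted p = 0.88). For these the data do not show that the lines changed alike, only that the difference did not pass.

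Myc fell 21.1-fold and 12.6-fold, with a line difference of -0.75 (-1.14 to -0.35, adjusted p = 0.257). Among other feedback inhibitors the line difference had either sign. Spry2 fell in both lines, at 1.32, 0.86 and 1.27 (8h2h) against 3.54, 3.53 and 3.73 (8h) on KO-labelled arrays and 0.49, 0.68 and 0.48 against 3.42, 3.43 and 3.30 on Rescue-labelled ones. Its line difference was 0.54 (0.23 to 0.86, adjusted p = 0.321). Dusp4 had -0.62 (-1.14 to -0.10, adjusted p = 0.601) and Spry4 -0.87 (-1.72 to -0.01, adjusted p = 0.699), with 1 of 3 KO-labelled 8h2h arrays reading Spry4. With 12 arrays Spry4 had -0.25 (-1.72 to 1.22), and slide b alone gave 0.56. The Fos relative Fosl1 had -0.36 (-1.0 to 0.28), and Etv4, an ETS factor that follows ERK activity over longer times, had 0.00 (-0.65 to 0.65) and no called change in either line.

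Of the naive pluripotency genes 0 of 24 had a called line difference in limma with 11 or 12 arrays, and 5 and 1 had an unadjusted p below 0.05. With array weights on 12 arrays 1 member, Esrrb, was called (0.62, adjusted p = 0.0499), but not with array weights on 11. The list's median was 0.13 with 11 arrays, 18 of 24 above 0, and 0.00 with 12 arrays, 12 of 24 above 0. On slide b alone it was -0.23, against 0.14 and 0.11 on slides a and c. With 11 arrays 7 members rose and 2 fell on KO-labelled arrays (6.43% and 5.93% of all genes), and 4 rose and 3 fell on Rescue-labelled ones (5.28% and 4.88%).

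Nanog had 1.82, 0.70 and 1.17 at 8h2h, against 0.48, -0.07 and -0.27 at 8h, on KO-labelled arrays, and -0.48, -1.77 and -1.37 against -2.46, -2.78 and -2.58 on Rescue-labelled ones. It rose in both lines, 2.48-fold and 2.64-fold, with a line difference of -0.09 (-0.77 to 0.59). Klf2 rose in both lines too (2.15 and 1.87 on the log2 scale), with 0.28 (-0.23 to 0.79). Klf4 had 5.46, 4.46 and 5.39 against 3.87, 3.26 and 3.26 on KO-labelled arrays, and 2.77, 2.30 and 2.38 against 1.43, 1.11 and 1.17 on Rescue-labelled ones, with a line difference of 0.63 (0.26 to 1.0, adjusted p = 0.322). Tbx3 had 0.81 (-0.08 to 1.71) and Tfcp2l1 0.66 (-0.19 to 1.52), and both passed the within-line test on KO-labelled arrays alone, which does not show a difference between the lines. With 12 arrays they had 0.49 and 0.20, and the KO change of Tfcp2l1 missed the threshold (adjusted p = 0.29). Klf2 and Klf4 had 0.10 and 0.39 with 12 arrays.

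Gbx2 had the lowest value of the naive list with 11 arrays, -0.93 (-1.38 to -0.49, adjusted p = 0.215), and fell in both lines. Sox2, of the core pluripotency factors, had the lowest adjusted p of the naive and core pluripotency lists with 11 arrays, and Prdm14 (0.63, adjusted p = 0.569) with 12. Sox2 had 4.09, 3.54 and 4.09 at 8h2h, against 4.44, 4.47 and 4.55 at 8h, on KO-labelled arrays, and 3.10, 3.10 and 3.05 against 4.08, 4.07 and 4.07 on Rescue-labelled ones. It fell in both lines, and the line difference was 0.59 (0.39 to 0.79, adjusted p = 0.0883) with 11 arrays and 0.41 (-0.02 to 0.84, adjusted p = 0.88) with 12. Pou5f1, the Oct4 gene, had 0.35 (0.01 to 0.69, adjusted p = 0.684), and 0.18 with 12 arrays.

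Formative and primed genes, of which 0 of 20 were called, had a median of -0.16 with 11 arrays and -0.10 with 12. Pou3f1, an early formative factor, fell in both lines (by 1.94 and 1.73 on the log2 scale) with a line difference of -0.21 (-0.61 to 0.19). Cdx2 fell by 1.31 and 1.03, with -0.27 (-0.87 to 0.32), and the simple keratin gene Krt18 had -0.17 (-0.45 to 0.10). In the growth factor and receptor list 1 of 22 was called with 11 arrays, Bmp4 again, and its median was 0.21 with 11 arrays and 0.25 with 12. Ccl20, a chemokine gene, fell by 5.71 and 4.64 in the lines, with a line difference of -1.07 (-1.41 to -0.74, adjusted p = 0.0688) with 11 arrays. It was called with array weights on 12 arrays (adjusted p = 0.0094) and not on 11.

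The other 11 lists held no called gene with 11 or 12 arrays. They covered core pluripotency, LIF and STAT3 targets, trophoblast and keratins, feeder fibroblasts, actin and SRF targets, p53 targets, cell cycle, ribosome biogenesis, ATF4 stress genes, sterol synthesis and glycolysis. Their medians ran between -0.17 and 0.07 with 11 arrays and between -0.16 and 0.34 with 12, where feeder fibroblast genes had the highest (-0.05 with 11). With array weights on 12 arrays Sox2 (adjusted p = 0.0297) and Lima1, an actin-binding protein gene (0.0282), were called in them, but neither was with 11.

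**Figure D5:**
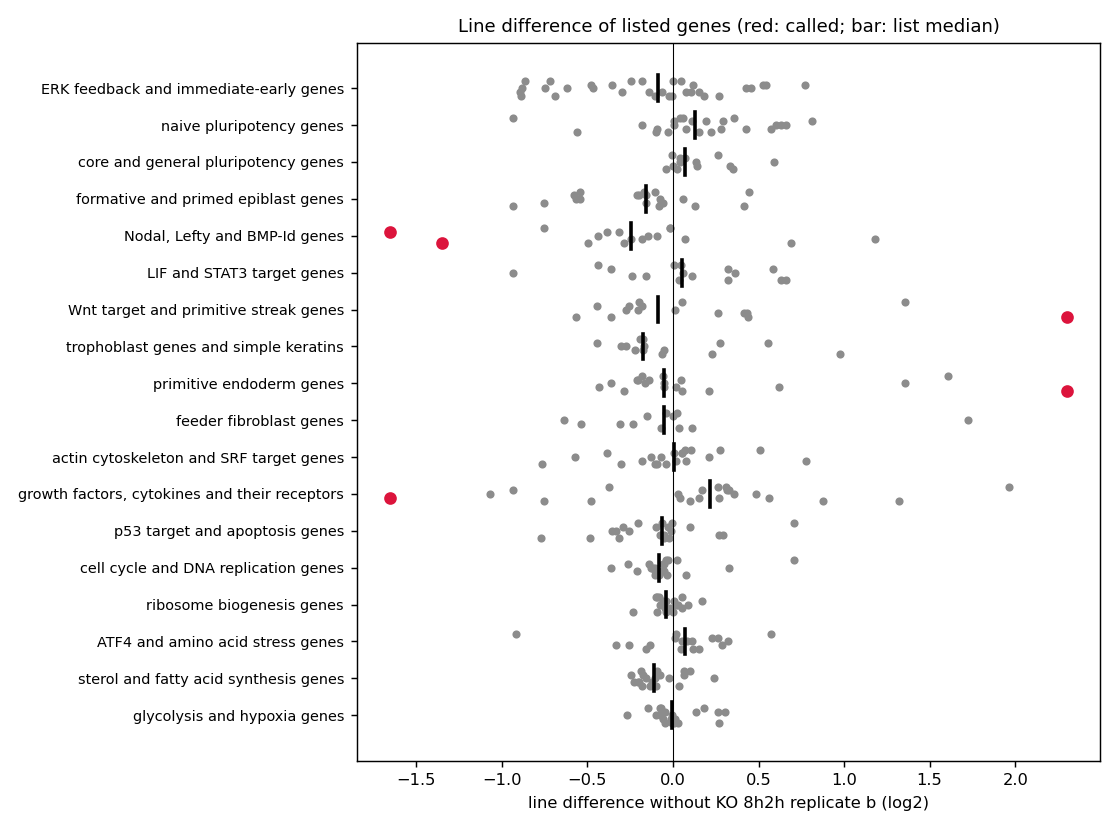
Line difference without KO 8h2h replicate b (horizontal axis, log2) of each tested member of the 18 gene lists; red points are called genes and black bars list medians. Bmp4 and Id1 lie at the low end of the Nodal, Lefty and BMP-Id list and Foxa2 at the high end of 2 lists, while list medians lie between -0.25 and 0.21.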

How the data were processed

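Expression was read on 1-colour Agilent arrays with 1 array per sample. Per the file headers, the authors extracted spots with Agilent Feature Extraction 12.0.1.1, and the deposited processed signal is a background-subtracted intensity, not scaled from array to array. The authors' deposited flags for detection, saturation and outlying spots were used too. The authors' value table held the same intensity on all 62976 spots of each array. Array preparation used 100 ng of total RNA per the labels, which name Cy5, whereas the headers describe 1 green channel.

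The unit of level was log2 of the processed signal less the 75th percentile of non-control spots on that array. A probe needed detection well above background on 3 of 3 arrays in any of the 4 groups, and no outlier spots, which left 33951 of 56605 probes. Of these 23164 had a symbol through RefSeq transcript names, and each gene was read from its brightest kept probe, giving 15976 genes. limma 3.58.1 under R 4.3.3 fitted the 4 group means with the slide as a block (the deposited scanner files put all arrays of a replicate letter on 1 slide), on 12 arrays and again on 11 without KO 8h2h replicate b. Calls were two-sided at a Benjamini-Hochberg adjusted p below 0.05 over all genes. Intervals are 95% intervals of the fit. The script was tested on simulated data. The number of arrays limits the precision.

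The comparison, the 18 gene lists and the named genes were chosen with earlier results of these data known, so they are no independent support. The rule for named genes took, per direction, up to 12 called genes with 1 sign on the slides used, read on at least 2 arrays of each group (those called with 11 arrays filling the places that 12 arrays left), up to 4 dim called genes, up to 4 called members a list, and a fixed set of 20 genes. Foxc2, the other called genes and the other list members were picked after their values were seen. Lists overlap in part. Alternatives changed the block, the arrays fitted, array weights, background correction, scaling, the dim filter, the probe per gene, the variance prior and single arrays.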

Additional observations from a re-analysis of the deposited data

Results flagged for a closer look

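With 12 arrays the test of the line difference itself passed in 5 genes. Lrrtm3 had an adjusted p of 0.00197 in limma and was called when any 1 of the 12 arrays was left out. It was not called under normexp, quantile normalization, median scaling or the trended prior, and of 23 settings with 11 arrays 19 called it. Hsd3b4 followed at 0.0344, and Foxc2, Olfr1241 and 4930412B13Rik each stood at 0.0382. All 5 were higher in the line difference and were also called without KO 8h2h replicate b. Each was read well above background on 3 of the 12 arrays, all of 1 group, and so passed the dim filter only through the group where it was high. The p-values therefore describe these genes and lend them no support, and the part of dim signal in these calls was not tested.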

How the results depend on the processing

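With 12 arrays the 5 calls in limma (5 higher, 0 lower) became 9 (8 higher, 1 lower) with no replicate block, 11 (10 and 1) with the slide as a random block, 12 (10 and 2) on all 18 arrays of the series and 108 (76 and 32) with array weights, which gave KO 8h2h replicate b a weight of 0.0462 against at least 0.246 for the others. They became 6 (3 and 3) with a trended, robust prior, sharing 0 of the 5, and 1 (higher) without the dim filter. The count was 0 under normexp, quantile normalization, median scaling and the filter on all 12 arrays, with 631, 597, 124 and 581 genes at an unadjusted p below 0.05. Median scaling put the median line difference of all genes at -0.71, so its values are relative to that shift. Without scaling there were 4 calls, and 5 with the authors' table or a mean of a gene's probes. Leaving out 1 of the 12 arrays gave 1 to 26 calls, 1 to 18 higher and 0 to 8 lower, the upper ends being without KO 8h2h replicate b. With 11 arrays the 26 calls became 43 with the random block, 17 on all arrays, 14 with array weights and 2 without the dim filter, and 0 to 26 when 1 more array was left out (835, 826, 947 and 1202 genes at an unadjusted p below 0.05 where the count was 0). The other settings with 11 arrays gave 18 to 32 calls. Median scaling kept all 26 of the same genes, and no replicate block kept 18. The trended, robust prior kept 15, normexp and the filter on all 12 arrays 14 each, and no scaling 13. The cause was not tested. No called value reversed. Among the 46 named genes, 63 values ceased to pass, all from the 5 genes called with 12 arrays. Another 62 values passed, all from genes not called with 12 arrays. The other values kept their side of the threshold, and 15 uncalled genes changed sign in 31 values. As a check of the pairing behind the replicate block, 11 of 18 same-slide pairs of arrays deviated together from their group means (r over 0.1; median 0.145, lowest -0.05, highest 0.74), and 11 of 12 arrays correlated best with their own slide. Dim signal limits 1151 genes (7.20%) that a whole group did not read well above background.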
